A study of Mus musculus with 2 samples.

Results

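Imprinted genes are expressed mainly from the allele of a single parent, and several of them carry microRNAs in their introns, exons or associated transcripts. A microRNA is cut from a hairpin precursor as a strand of about the length of the arms printed below, and bases 2 to 8 of that strand, the seed, do most of the pairing with target messages. The best known imprinted microRNAs of the brain are those of the Dlk1-Dio3 locus. The microRNAs described here lie elsewhere, at the paternally expressed gene Mest (Mir335), at the Gnas locus beside the paternally expressed antisense transcript Nespas (Mir296 and Mir298), in the maternally expressed H19 RNA (Mir675) and in the growth factor gene Igf2, which is paternally expressed in most tissues (Mir483). They are 5 of the 2202 microRNA genes of the deposited tables and were chosen by gene symbol. Of the 5, 4 were detected and Mir675 had no read.

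Small RNA under 30 bases was sequenced from left cerebral cortex taken from male mice aged 8 to 10 months, of a strain given as 5xFAD/CAST. 5xFAD is a transgenic model of amyloid deposition whose transgenes are driven by the neuronal Thy1 promoter, and CAST commonly stands for a wild-derived inbred strain. The labels do not say whether these animals carried the transgenes. There was 1 group of 2 libraries, biological replicates 1 and 2, and no control group was analysed here. Both tissue samples carry the same donor identifier, and the labels do not say that they came from separate animals, so their spread may be a technical one. The count of a gene pools both arms of its hairpin and both parental alleles.

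Levels are sense counts scaled to a library total of 1000000 gene reads (CPM), from totals of 4929428 in replicate 1 and 4441328 in replicate 2. Genes reaching 10 reads in both libraries, 417 in all, are named detected. The neuronal markers fitted the labelled tissue in part: 9 of 11 were detected, with summed levels of 51700 CPM (replicate 1) and 63361 CPM (replicate 2). That sum was led by Mir132, at 19682 CPM in replicate 1 against 44698 CPM in replicate 2, and without it, a choice made after its values were seen, the sum was 32018 CPM in replicate 1 against 18663 CPM in replicate 2. Mir124a-2 and Mir124a-3, loci of the neuronal miR-124, had 0 to 9 reads per library. Mir124a-1, another miR-124 locus, and Mir9-2 were detected, but near the minimum of 10 reads. Mir124a-1 had 21 reads in replicate 1 and 12 in replicate 2, and Mir9-2 had 12 and 16. The gene counts leave out reads with several matches in the genome. Marker levels of choroid plexus and ependyma summed to 2069 CPM (replicate 1) and 1573 CPM (replicate 2), with 7 of 9 detected and Mir449b at 0. Its members differed both ways, with Mir1298 at 566 CPM in replicate 1 against 173 CPM in replicate 2, Mir204 at 1084 against 553 CPM, and Mir34c at 242 against 711 CPM. Those of vessels summed to 20418 and 21812 CPM, with 3 of 3 detected. The red blood cell markers Mir451a and Mir144 were both higher in replicate 1, at a sum of 587 CPM in replicate 1 against 58.5 CPM in replicate 2. The single liver marker, Mir122, stood at 69.0 and 50.9 CPM. Of 5 muscle markers 1 was detected and 3 were at 0, with sums of 35.5 and 46.8 CPM.

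Both mature arms of each gene are shown because reads from either arm enter the count of the gene. They are RefSeq sequences (GRCm38.p6), written 5′ to 3′, with the seed in capitals.
miR-335-5p: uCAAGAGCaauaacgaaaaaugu
miR-335-3p: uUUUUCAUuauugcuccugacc
miR-298-5p: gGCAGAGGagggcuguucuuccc
miR-298-3p: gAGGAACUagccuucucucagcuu
miR-296-5p: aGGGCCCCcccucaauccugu
miR-296-3p: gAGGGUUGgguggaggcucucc
miR-483-5p: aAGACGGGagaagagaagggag
miR-483-3p: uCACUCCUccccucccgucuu
miR-675-5p: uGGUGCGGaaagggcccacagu
miR-675-3p: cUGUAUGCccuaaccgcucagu

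The 10 arms had 10 different seeds, and none of these seeds was found in another gene among the 1738 mature sequences of the table, so the 5 genes form no seed family with each other or with the other microRNAs listed there. Mir296 and Mir298 lie side by side on the chromosome but share no seed. The arms were also searched as exact matches, on both strands, in 141767 annotated transcripts. Each was found in its own gene only, except that both arms of Mir675 were also found in 3 transcripts of its host H19. No hairpin shared a stretch of 20 bases with another microRNA gene. Copies elsewhere in the genome were not searched.

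The genes differ in base composition. Mir335 has the most A and U, with a mean GC content of 33.4% over its arms, and only 2.94% of the 374 detected genes with a sequence had a lower one. Mir296 lies at the other end, at 67.4%, above 92.2% of those genes. Mir298, Mir483 and Mir675 lay between, at 57.6%, 58.2% and 59.1%.

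In the GENCODE M21 annotation of mm10, Mir335 is at chr6:30741299-30741396 on the plus strand. It lies in an intron of Mest, a gene for a membrane protein of the hydrolase fold, and 7 of the 11 annotated Mest transcripts span it. Mir483 is at chr7:142654924-142654996 on the minus strand and lies within an intron of Igf2, in 7 of 9 transcripts. The annotated gene Gm49394, which overlaps Igf2 on the same strand, also spans Mir483. Mir675 is at chr7:142577064-142577147 on the minus strand, inside an exon of 3 of the 7 annotated transcripts of H19, a long non-coding RNA, and 77.8 kb from Mir483. Mir298, at chr2:174267504-174267585, and Mir296, at chr2:174267047-174267125, lie on the minus strand 378 bases apart, with Mir298 upstream in the direction of transcription. No annotated gene overlaps them on either strand. Nespas, on the same strand, is annotated to end 13.7 kb upstream of Mir298.

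**Figure D1:**
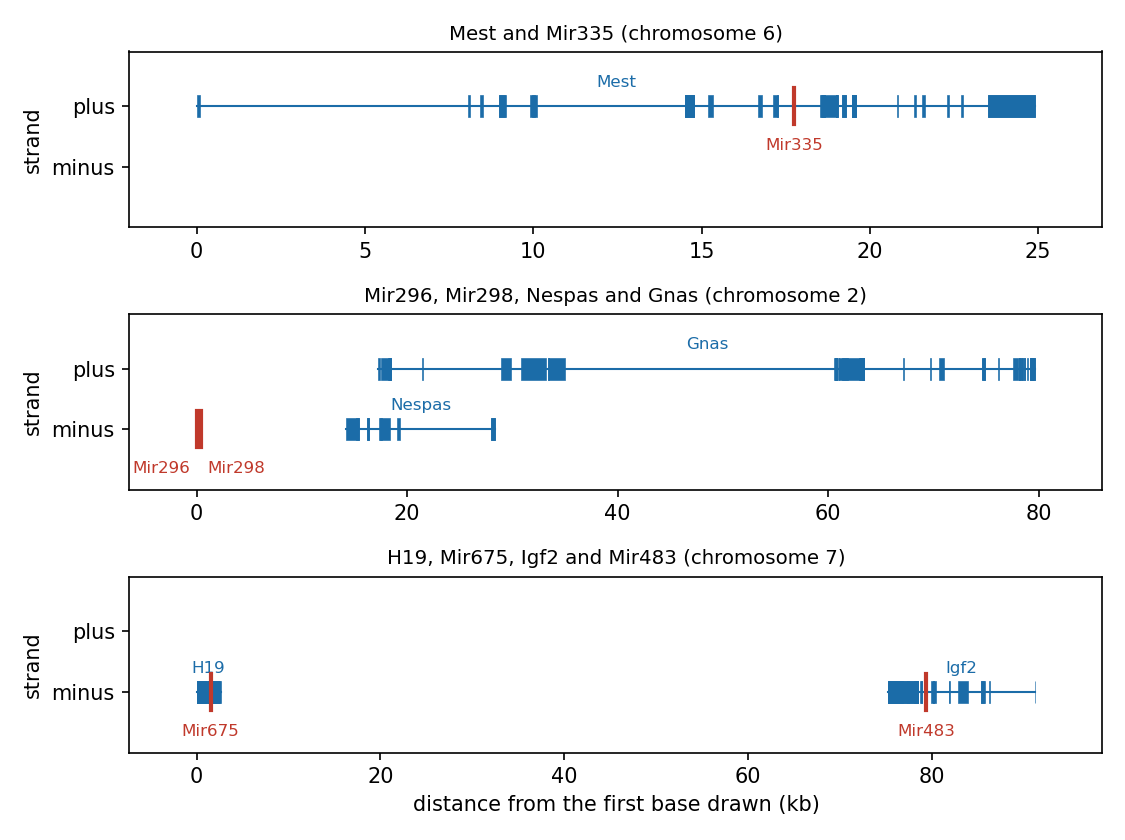
Annotated exons (blue boxes) and introns (blue lines) of the host and neighbouring genes, with the microRNA genes as red bars, by strand and by distance in kb from the first base drawn of each locus. Mir335 and Mir483 sit in introns, Mir675 sits in H19, and Mir296 with Mir298 lies 13.7 kb beyond the annotated end of Nespas.

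Together the 5 genes took 0.395% of the microRNA reads in replicate 1 (95% Clopper-Pearson interval 0.390 to 0.401%) and 0.591% in replicate 2 (0.584 to 0.598%), a mean of 0.493 ± 0.138% (SD, n = 2). Intervals here and below cover counting error only. For comparison, the imprinted Dlk1-Dio3 locus took 11.1% in replicate 1 and 10.3% in replicate 2, with 50 of its 59 annotated microRNA genes detected. Its leading members were Mir127 (38107 CPM in replicate 1 and 27235 CPM in replicate 2), Mir433 (11222 and 11937 CPM) and Mir770 (6230 and 9494 CPM). In mean level, 8 genes of that locus lay above Mir335 and 15 above Mir298.

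Mir335, whose human form is known as a suppressor of metastasis in breast cancer cells, was the most abundant of the 5. It had 15642 reads in replicate 1 and 16425 in replicate 2, which is 3173 CPM (exact Poisson interval 3124 to 3223) and 3698 CPM (3642 to 3755). The mean was 3436 ± 371 CPM (SD, n = 2). It ranked 49th of 2202 genes in replicate 1 and 47th in replicate 2, above 88.2% and 88.7% of the detected genes. Mir335 supplied 80.2% of the reads of the 5 genes in replicate 1 and 62.6% in replicate 2.

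Mir298, which in mouse cells is known to bind the message of the amyloid-producing protease gene Bace1, had 2198 reads in replicate 1 and 8899 in replicate 2. These are levels of 446 CPM (427 to 465) and 2004 CPM (1962 to 2046), so the counting intervals lay far apart, and the mean was 1225 ± 1102 CPM (SD, n = 2). Its rank was 134th in replicate 1 and 67th in replicate 2.

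Mir296, known in human endothelial cells as a microRNA induced by growth factors, had 1421 reads in replicate 1 and 687 in replicate 2. Its levels were 288 CPM (273 to 304) and 155 CPM (143 to 167), with a mean of 221 ± 94.5 CPM (SD, n = 2), so that it was the higher in replicate 1 where Mir298 was the lower.

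Mir483, known from fetal liver and from tumours with high Igf2, had 233 reads in replicate 1 and 223 in replicate 2. Its levels were 47.3 CPM (41.4 to 53.7) and 50.2 CPM (43.8 to 57.3), and its mean was 48.7 ± 2.08 CPM (SD, n = 2). The intervals overlapped, and the level lay below the median of the detected genes in both libraries (98.4 CPM and 87.6 CPM).

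Mir675, which in mouse is known to restrain growth of the placenta, had 0 reads in both libraries, in the sense count, the antisense count and the count without regard to strand. The level of 3 reads per library, a limit for a count of 0 when only an upper bound is sought, is 0.609 CPM for replicate 1 and 0.675 CPM for replicate 2. The upper end of the exact Poisson interval given for the other members is 0.748 CPM for replicate 1 and 0.831 CPM for replicate 2. Sense reads lost as ambiguous between genes came to 0 in both libraries. With no read in either library it was among 1436 such genes of 2202. Its host H19 is abundant in the embryo and placenta and is largely shut down after birth in most tissues, and H19 itself was not measured in these tables.

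The order Mir335, Mir298, Mir296, Mir483, Mir675 was the same in both libraries, but the steps were not. Mir335 was 7.12-fold above Mir298 in replicate 1 and 1.85-fold above it in replicate 2. Mir298 was 1.55-fold above Mir296 in replicate 1 and 13.0-fold in replicate 2. The means of Mir298 and Mir296 differed by less than the SD of Mir298. Both genes were counted in the same libraries and Mir298 was the higher in each, so the size of that step varied between the libraries but its direction did not. Mir296 was 6.10-fold above Mir483 in replicate 1 and 3.08-fold in replicate 2. These levels are reads per gene, not divided by length, since a read covers an arm of 21 to 24 bases whatever the length of the hairpin. Per 100 bases of hairpin the order was unchanged, at 3238, 544, 365 and 64.7 CPM in replicate 1 and at 3774, 2444, 196 and 68.8 CPM in replicate 2 for Mir335, Mir298, Mir296 and Mir483.

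**Figure D2:**
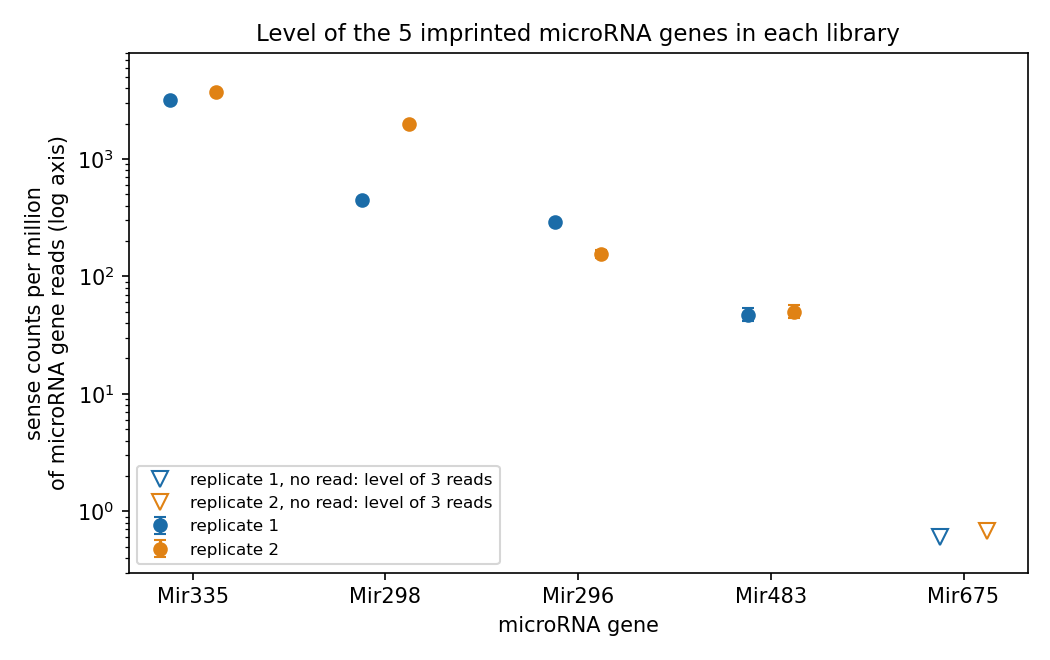
Level of each gene in replicate 1 (blue) and replicate 2 (orange) as CPM on a log axis, with exact Poisson 95% intervals that are mostly smaller than the points. Mir335 lies at 3173 and 3698 CPM, Mir298 and Mir296 are close in replicate 1 and 13.0-fold apart in replicate 2, and the open triangles give the level of 3 reads for Mir675, which had none.

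The only comparison these data hold is between the 2 libraries, and it says nothing of a condition. Each gene was tested with a two-sided exact binomial test, Benjamini-Hochberg adjusted over the 417 detected genes at a threshold of 0.05. By this test 3 of the 4 detected members differed between the libraries. The same test called 59.2% of all detected genes, so that share is not particular to the 4. Of all detected genes 34.5% were called higher in replicate 1, among them Mir296, and 24.7% lower, among them Mir335 and Mir298.

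Mir298 was lower in replicate 1, with a log2 ratio of replicate 1 to replicate 2 of -2.17 (exact 95% interval -2.24 to -2.10), a 4.49-fold difference and the 8th widest of the 417. Its adjusted p in the exact binomial test was too small to be represented as a number. Mir296 was higher in replicate 1, at a log2 ratio of 0.90 (0.77 to 1.03; adjusted p = 1.87e-42 in the exact binomial test), or 1.86-fold. Mir335 was lower in replicate 1 by a small step, a log2 ratio of -0.22 (-0.25 to -0.19; adjusted p = 4.95e-42 in the exact binomial test). Mir483 did not pass, at -0.09 (-0.36 to 0.18; adjusted p = 0.648 in the exact binomial test).

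Of the 4 members, Mir298 alone was called and at least 2-fold apart, as were 11.3% of the detected genes. With all reads of a library as the total, Mir296 was so too, at a log2 ratio of 1.10. The median absolute log2 ratio was 0.56 over the 4 detected members, 0.37 over all detected genes and 0.33 over the 50 detected genes of the Dlk1-Dio3 locus, of which 3 were at least 2-fold apart.

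The binomial test counts sampling error alone. When the usual scatter between these libraries was included, through edgeR's common dispersion fitted without groups (a coefficient of variation of 0.340), none of the 4 passed in the edgeR exact test, and 1.44% of all detected genes did. Mir298 came closest, with an unadjusted p of 0.00319 and an adjusted p of 0.190 in the edgeR exact test, and 1 of the 4 lay at an unadjusted p under 0.05, against 5.52% of all detected genes. The gap in Mir298 therefore exceeded counting error but did not pass the edgeR exact test after adjustment. The dispersion of that test was fitted to the same differences between these 2 libraries that were then tested. It thus cannot show whether the gap exceeds a scatter measured apart from them, and few calls are to be had from it in any case. The summed level of the red blood cell markers, given above, was 10.0-fold higher in replicate 1, and single markers of neurons and of choroid plexus differed as well; their part in the differences of Mir296 and Mir298 was not tested.

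**Figure D3:**
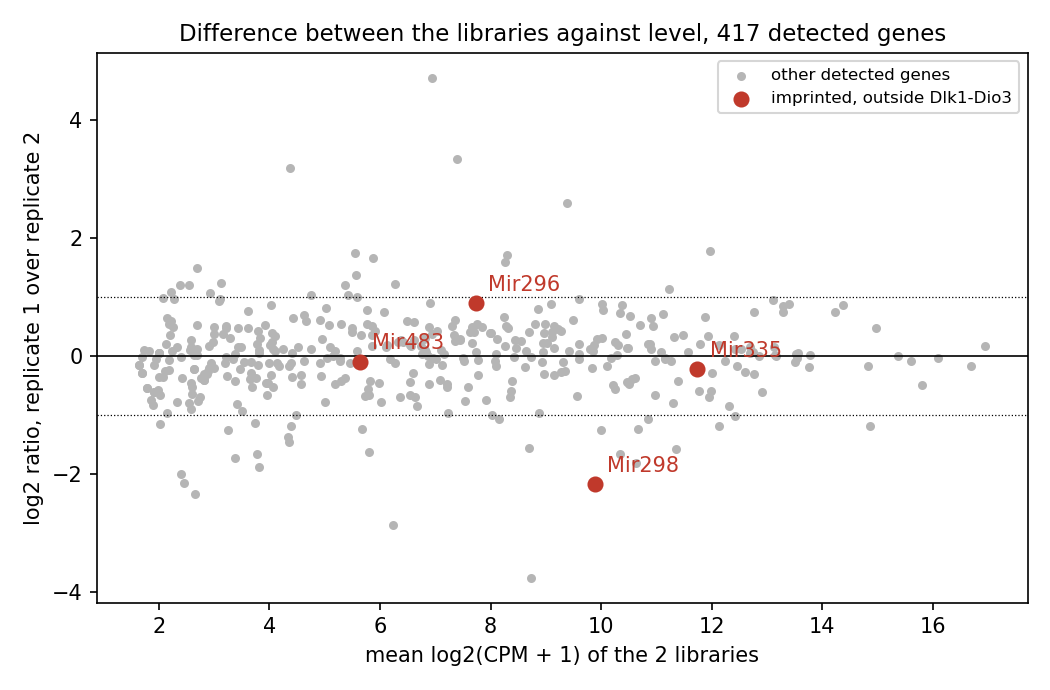
Log2 ratio of replicate 1 to replicate 2 against mean log2(CPM + 1) for the 417 detected genes (grey) and the 4 detected imprinted members (red), with dotted lines at a 2-fold difference. Mir335 and Mir483 lie near 0, Mir296 lies just inside the 2-fold line above 0, and Mir298 lies at -2.17.

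Mir298 and Mir296 lie on the same strand 378 bases apart and differed between the libraries in opposite directions. Their hairpins are shown 5′ to 3′ from RefSeq (GRCm38.p6, minus strand), with both mature arms in capitals, to show that they are separate precursors.
Mir298: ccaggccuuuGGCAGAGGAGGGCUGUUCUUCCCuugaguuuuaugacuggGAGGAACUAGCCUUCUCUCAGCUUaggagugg
Mir296: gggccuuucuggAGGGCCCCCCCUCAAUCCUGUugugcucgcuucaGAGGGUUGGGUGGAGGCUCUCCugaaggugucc
Of the summed reads of this pair, Mir298 took 60.7% in replicate 1 (Clopper-Pearson interval 59.1 to 62.3%, 3619 reads) and 92.8% in replicate 2 (92.3 to 93.3%, 9586 reads). The mean share was 76.8 ± 22.7% (SD, n = 2). This share is taken within a library and does not depend on how the libraries are scaled. The ratio of Mir298 to Mir296 was 1.55 in replicate 1 and 12.95 in replicate 2, and the sum of both was 734 CPM in replicate 1 and 2158 CPM in replicate 2.

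Among all detected genes 107 adjacent pairs shared a strand and lay within 10 kb of each other. The log2 ratios of the 2 genes of a pair differed by a median of 0.41, and those of Mir296 and Mir298 by 3.07, the widest of the 107. The next widest was that of Mir34c and Mir34b, at 2.18. Among the 41 pairs no farther apart than 378 bases, the median was 0.38 and the widest other difference, that of Mir99b and Mirlet7e, was 1.94. Among the 75 pairs with at least 100 reads in each count the median was 0.36, and Mir296 with Mir298 again stood first. In 22 of the 107 pairs (20.6%) both genes were called, in opposite directions, so that feature was not particular to this locus. Over 47 such pairs of the Dlk1-Dio3 locus the median difference was also 0.36. These are descriptions with no test, since pairs of genes are not replicates.

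**Figure D4:**
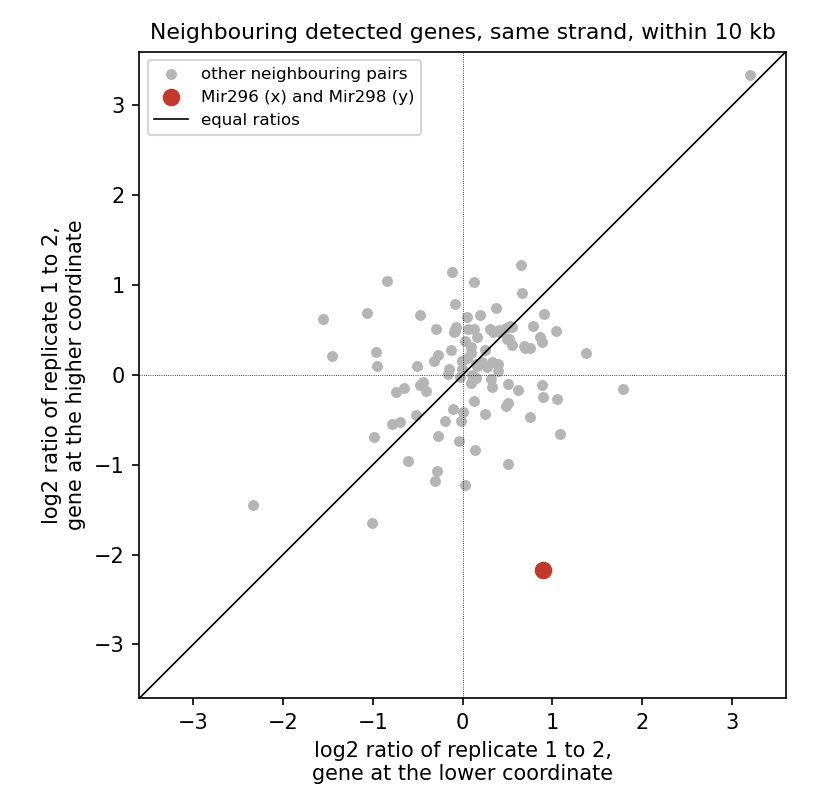
Log2 ratio of replicate 1 to replicate 2 of the gene at the lower coordinate (x) against that of the gene at the higher coordinate (y), for 107 adjacent pairs of detected genes that share a strand within 10 kb. The point of Mir296 and Mir298 (red), at 0.90 and -2.17, lies farthest from the line of equal ratios.

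The genes nearest in level to each member, by distance of log2(CPM + 1) over the 2 libraries, came from other loci. Nearest to Mir335 were Mir22, at 2847 CPM in replicate 1 and 4264 CPM in replicate 2 (distance 0.26), and Mir378a, at 3801 and 3273 CPM (0.31). Nearest to Mir298 were Mir455, at 666 and 1578 CPM (0.67), and Mir222, at 737 and 2310 CPM (0.75). Both were lower in replicate 1 as Mir298 was, which follows from their choice by level in both libraries. Nearest to Mir296 were Mir136, of the Dlk1-Dio3 locus, at 260 and 178 CPM (0.25), and Mir1306, at 239 and 170.2 CPM (0.30). Nearest to Mir483 were Mir25, at 48.7 and 45.7 CPM (0.14), and Mir1188, also of the Dlk1-Dio3 locus, at 41.4 and 44.8 CPM (0.25). With 2 libraries, such nearness describes levels and is no measure of co-expression.

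Base composition was set beside the differences between the libraries. Over the 374 detected genes with a mature sequence, mean GC content of the arms and the log2 ratio of replicate 1 to replicate 2 had a Spearman rho of -0.10, a description across genes that share the same libraries. Mir296, which has the higher GC content of the Gnas pair, was the one higher in replicate 1, opposite in direction to that rho. A part of base composition in the differences was not tested.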

How the data were processed

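The authors deposited, for each library, raw read counts per microRNA gene in 3 columns (sense, antisense and both strands together). The assembly was mm10 and the annotation GENCODE M21, per the notes deposited with the files. Which aligner and counter were used is not given in the sources used here. What the columns mean is inferred from their layout. Reads that mapped to several places (38.5% in replicate 1, 33.0% in replicate 2), unmapped reads (25.6% and 34.3%) and reads outside genes (5.82% and 6.54%) stayed out of gene counts, so microRNAs with identical copies can be undercounted. A single read is worth 0.203 CPM in replicate 1 and 0.225 CPM in replicate 2.

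All 2202 gene identifiers matched GENCODE M21, which gave symbols and coordinates. The sense column was scaled to a total of 1000000. Python 3.11.15, scipy 1.17.1, R 4.3.3, edgeR 4.0.16 and DESeq2 1.42.0 were used. With 1 group, edgeR's quasi-likelihood test has no contrast, and an exact binomial test compared the libraries. Log2 levels used a pseudocount of 1 CPM. Alternatives were the count column, TMM, DESeq2 or all-read scaling, the filter, the edgeR exact test and single libraries. The exact binomial test, its adjustment and the interval of the ratio were checked on simulated counts that held sampling error alone. The other steps across genes, among them the edgeR exact test, were not checked in this way.

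The members and lists were chosen with earlier results of these data known. Genes named are the members, the 2 genes nearest to each, the neighbouring pair that differed most, the 3 leading Dlk1-Dio3 genes and markers. The pairs of Mir34c with Mir34b and Mir99b with Mirlet7e were named after their values were seen.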

Additional observations from a re-analysis of the deposited data

How the results depend on the processing

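No paired analysis was possible because there is a single group of 2 libraries. With all reads of a library as the total, the mean levels were 960 CPM for Mir335, 329 CPM for Mir298 (1225 CPM over gene reads), 63.5 CPM for Mir296 and 13.7 CPM for Mir483, the share of the 5 genes was 0.137%, and the log2 ratio was -0.0197 for Mir335, no longer past the threshold (adjusted p = 0.293, exact binomial test), and 0.11 for Mir483, which turned its sign and was not called under either total. That total shifted the median log2 ratio of all detected genes by 0.20, and 197 genes were then called higher and 73 lower in replicate 1, 73.0% higher, against 144 and 103, 58.3% higher, in the tables as scaled here. In the counts without regard to strand the mean level of Mir483 was 52.5 CPM. Mir335 stood at 3700 CPM there, Mir298 at 1319 CPM and Mir296 at 238 CPM. The reads of each gene were the same in both counts, and only the library totals were smaller, at 4580103 in replicate 1 and 4122606 in replicate 2. By the edgeR exact test 6 genes differed in place of 247, and Mir335 (-0.22), Mir298 (-2.17) and Mir296 (0.90) lost their calls. That test also counts the scatter between libraries, with a dispersion fitted to the same 2 libraries that it compared. Mir298 and Mir296 kept their direction and their calls under the other 5 alternatives, at log2 ratios of -2.22 to -1.97 for Mir298 and 0.85 to 1.10 for Mir296. Those alternatives used the same reads of both genes and changed only the library totals or the set of genes tested. That the calls held is therefore no further support for the differences.

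Single libraries gave 3173 to 3698 CPM for Mir335, 446 to 2004 CPM for Mir298, 155 to 288 CPM for Mir296 and 47.3 to 50.2 CPM for Mir483, 0.395 to 0.591% for the share of the 5 genes and 60.7 to 92.8% for the share of Mir298 in its pair. The level of Mir298 and this share thus rest on which library is read. Detection of 4 members held at minimums of 5 and 50 reads. At this depth the level of Mir675 is limited only from above.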
